A study of Saccharomyces cerevisiae with 4 samples.

Results

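The hexose transporters and glucose sensors of budding yeast were followed in cells lacking the cohesin release factor Wpl1 and in wild type cells. The set was defined as the probe sets whose platform annotation gives the symbols HXT1 to HXT7, SNF3 or RGT2, which are 9 genes. Of these, 8 had a probe set named for them, out of 5449 S. cerevisiae genes measured in all, and each had 1 probe set. HXT6 had none. The probe set named for HXT7 is of the _s_at type, which in the manufacturer's naming matches several related transcripts, and HXT6 and HXT7 are near-identical neighbouring genes. Its value is therefore taken as that of HXT7 with a possible, unmeasured part from HXT6. The other carriers also resemble each other, and signal that their probe sets may share was not measured.

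The study hybridised labelled cDNA, made from total RNA of 4 yeast samples, to Affymetrix Yeast Genome 2.0 arrays. Of the samples, 2 came from a wpl1 deletion (strain Y3501, MATa, wpl1∆::KAN) and 2 from wild type (strain K699, MATa). In the deletion a KAN cassette replaces the gene. All cells grew exponentially in YP medium with 2% glucose and were collected at an OD600 of 0.3. Both strains share mating type and medium, and the labels do not say whether Y3501 derives from K699, whether it is 1 clone or whether each array had a culture of its own. The p-values therefore cover the array-to-array spread, which may be technical, and 2 arrays per group limit the precision.

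Yeast takes up glucose by facilitated diffusion through the Hxt carriers, which differ in affinity and in the glucose level at which their genes are used. Hxt1 and Hxt3 are low-affinity carriers of cells with plentiful glucose. Hxt2, Hxt4, Hxt6 and Hxt7 are high-affinity carriers that serve cells with little glucose, and Hxt5 is a carrier of intermediate affinity linked to slow growth and stress. Snf3 and Rgt2 resemble carriers but act as receptors, Snf3 for low and Rgt2 for high glucose. Their signal, passed through the casein kinases Yck1 and Yck2, leads the ubiquitin ligase with Grr1 to destroy Mth1 and Std1, which frees the HXT promoters from the repressor Rgt1 and its partners Cyc8 and Tup1. High glucose also silences the high-affinity genes through the repressor Mig1, which the kinase Snf1 opposes.

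The deleted gene and the mating type were checked first. RAD61, the standard name of WPL1, had log2 values of 3.96 and 4.44 in the deletion arrays and 6.43 and 6.55 in the wild type arrays. It was not above background in either deletion array and was at least 1.46-fold lower there. Background here is the 95th percentile of the 1746 probe sets for fission yeast on the same array, which ran from 5.79 to 6.10. The a-cell genes MFA1, MFA2, STE2, BAR1, STE6 and AGA2 were above it in 4 of 4 arrays. Of the alpha-cell genes, STE3 was below it in all 4 arrays, while MF(ALPHA)2 and SAG1 were above it in all 4 and MF(ALPHA)1 in 3. Replicate 2 stood apart on chromosome IX. The median log2 difference of its 191 genes, deletion minus wild type, was 0.66, against 0.04 in replicate 1. That difference does not tell which of the 2 replicate 2 arrays departs. None of the carriers or sensors lies on that chromosome. They lie on chromosomes IV, VIII and XIII by their systematic names, with HXT4, HXT1 and HXT5 in one cluster on VIII and HXT7, HXT6 and HXT3 in another on IV. AHT1, between HXT4 and HXT1, and YDR344C, between HXT6 and HXT3, are not among the genes measured here.

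The main comparison asks whether the carriers and sensors differ between cells without Wpl1 and wild type. The low-affinity carriers HXT1 and HXT3 and the high-affinity carrier HXT4 had nearly the same values in both genotypes within each replicate number. The high-affinity carrier HXT2 and the intermediate carrier HXT5 had lower values than wild type in deletion replicate 2 and were level with it in replicate 1. Both sensors had slightly lower values in the deletion in both replicates, but SNF3 in replicate 2 by less than the median of all genes. No carrier or sensor passed the test, and the deleted gene RAD61 did not pass it either. In RNA from whole cultures, fewer cells with a transcript and less of it per cell cannot be told apart.

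Among the low-affinity carriers, HXT1 had log2 values of 9.82 and 10.18 in deletion replicates 1 and 2, against 9.87 and 10.28 in wild type replicates 1 and 2. HXT3 had 11.12 and 11.41 in the deletion, against 11.09 and 11.49 in wild type. In both genes the replicate 2 array of each genotype was the higher one, and the genotypes overlapped. The log2 difference, deletion minus wild type, was -0.07 (SE 0.28, 95% interval -0.76 to 0.62) for HXT1 and -0.02 (SE 0.27, interval -0.69 to 0.65) for HXT3. These intervals include the difference between replicate numbers. With the replicate number as a block the SE was 0.14 for each, with intervals of -0.42 to 0.28 for HXT1 and -0.38 to 0.34 for HXT3.

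Of the high-affinity carriers, HXT4 had log2 values of 8.02 and 8.63 in the deletion, against 7.99 and 8.76 in wild type. It overlapped between genotypes in the same way, with a difference of -0.05 (SE 0.37, and SE 0.14 with the block). HXT7 had 9.59 and 9.65 in the deletion, against 9.63 and 10.01 in wild type. The 2 deletion arrays and wild type replicate 1 lay close together, and wild type replicate 2 alone was higher. Its difference was -0.20 (SE 0.25, and SE 0.16 with the block), made up of -0.04 in replicate 1 and -0.36 in replicate 2.

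HXT2 had log2 values of 10.89 and 9.87 in the deletion, against 10.87 and 10.74 in wild type. A single array, deletion replicate 2, was low, and the other 3 lay within a narrow band. The difference was 0.02 in replicate 1 and -0.87 in replicate 2, which corresponds to 0.548 of the wild type signal there. In replicate 2, 42 of the 5449 genes had a lower difference than HXT2, and in replicate 1 the count was 2542. The fit over all 4 arrays gave -0.42 (SE 0.38, 95% interval -1.37 to 0.52, and SE 0.24 with the block).

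HXT5 showed the same order of arrays at a much dimmer signal, with 6.47 and 5.72 in the deletion, against 6.46 and 6.37 in wild type. It was above background in 1 of the 2 deletion arrays and in both wild type arrays, since its value in deletion replicate 2 lay under the limit of 6.10 of that array. The difference was 0.01 in replicate 1. In replicate 2 the value under the limit gives a bound, with HXT5 lower than wild type by at least 1.20-fold. The fit, which used the value as deposited, gave -0.32 (SE 0.32), so its size is not a measured one. Without deletion replicate 2 the fitted differences were 0.09 for HXT2 and 0.05 for HXT5, so the lower values of both rest on that array. Chromosome IX also stands apart in the comparison of the replicate 2 arrays, and its part in the result was not tested.

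**Figure D1:**
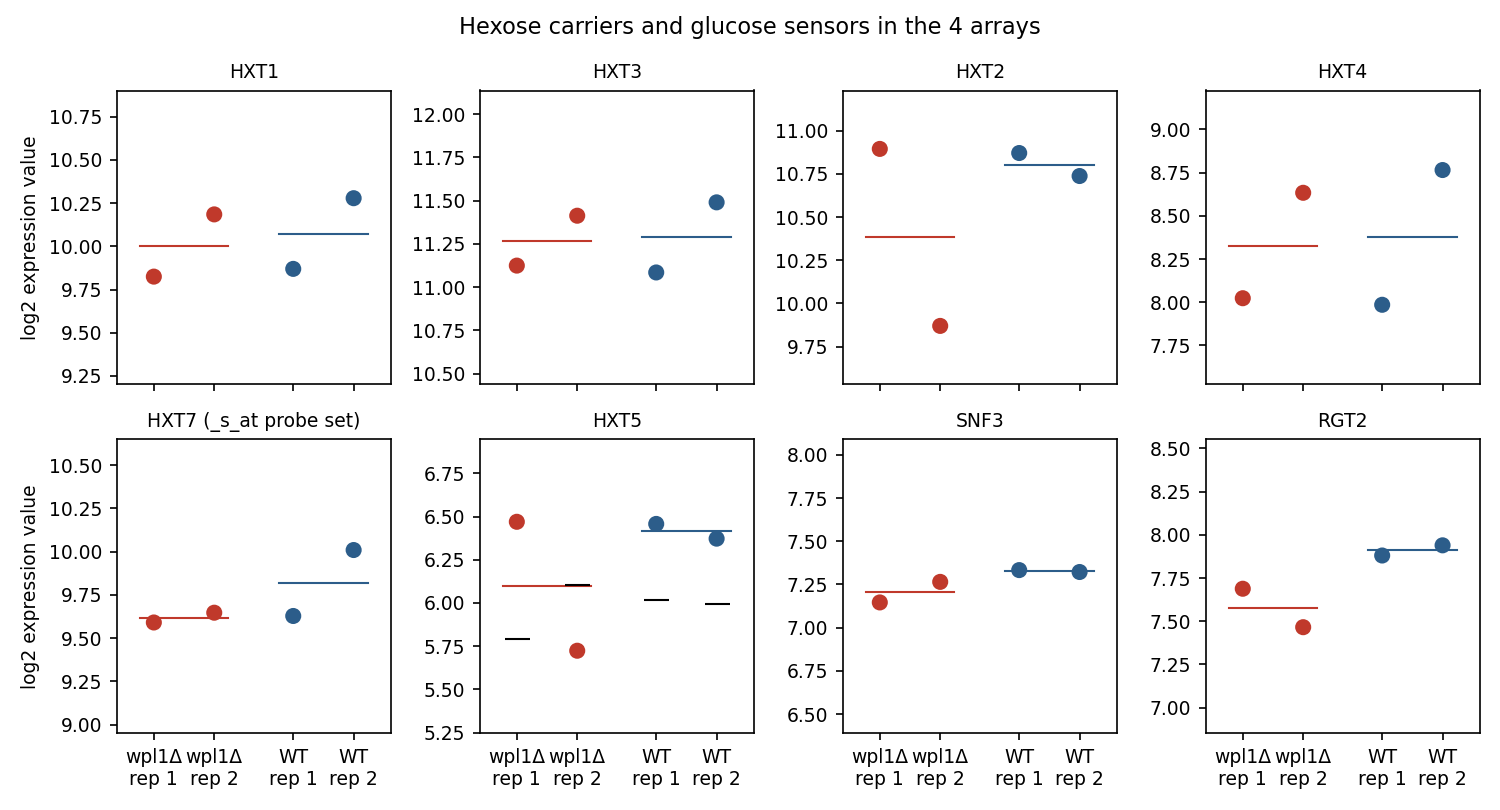
Log2 expression values (vertical axis, each panel spanning the same log2 range) of the 8 measured genes in the wpl1 deletion arrays (red) and the wild type arrays (blue). Dots are arrays, coloured lines group means over 2 arrays, and black dashes in the HXT5 panel the background limit of each array. HXT2 is at 9.87 and HXT5 at 5.72 in deletion replicate 2, below their other arrays, while HXT1, HXT3 and HXT4 are higher in the replicate 2 array of both genotypes.

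The sensors were the 2 genes of the set whose groups did not overlap between genotypes. RGT2 had log2 values of 7.69 and 7.47 in the deletion, against 7.88 and 7.94 in wild type. Both deletion arrays were below both wild type arrays, by 0.19 in replicate 1 and 0.47 in replicate 2. The difference was -0.33 (SE 0.24, 95% interval -0.92 to 0.25, and SE 0.15 with the replicate number as a block). SNF3 had 7.15 and 7.26 in the deletion, against 7.33 and 7.32 in wild type. The gap was narrow, 0.19 in replicate 1 and 0.06 in replicate 2, and its difference was -0.12 (SE 0.23, and SE 0.14 with the block). In replicate 1, 9.73% of all genes had a lower difference than SNF3. In replicate 2 the share was 56.9% and the median of all genes was -0.10, so the gap of SNF3 there was no larger than that of most genes. Across all genes, 8.61% had both deletion arrays below both wild type arrays, against 2 of the 8 here.

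Tested with limma over all genes, 0% of 5449 genes were called at an adjusted p under 0.05, and 0 of the 8 carriers and sensors passed (adjusted p = 1 for each). At an unadjusted p under 0.05 there were 10 genes, 0 of them in the set. The deleted gene RAD61 had an unadjusted limma p of 0.000195 and did not pass after adjustment. A gene that did not pass is therefore not shown to be unchanged. With the replicate number as a block, limma again called 0 genes, and 156 genes and 0 of the set had an unadjusted p under 0.05. The fitted difference was below 0 for 8 of 8, with a median of -0.16. Among all genes 56.4% were below 0, and their median was -0.03. Within replicates, the set had a median of -0.01 in replicate 1 and -0.25 in replicate 2, against 0.04 and -0.10 for all genes. With arrays left out in turn, the direction turned for HXT1, HXT2, HXT3, HXT4 and HXT5 and held for HXT7, SNF3 and RGT2. Those fits mix genotype with replicate number, so a turn in them is not by itself a turn of the genotype difference. HXT1, for example, was below 0 within both replicates, at -0.04 and -0.09.

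**Figure D2:**
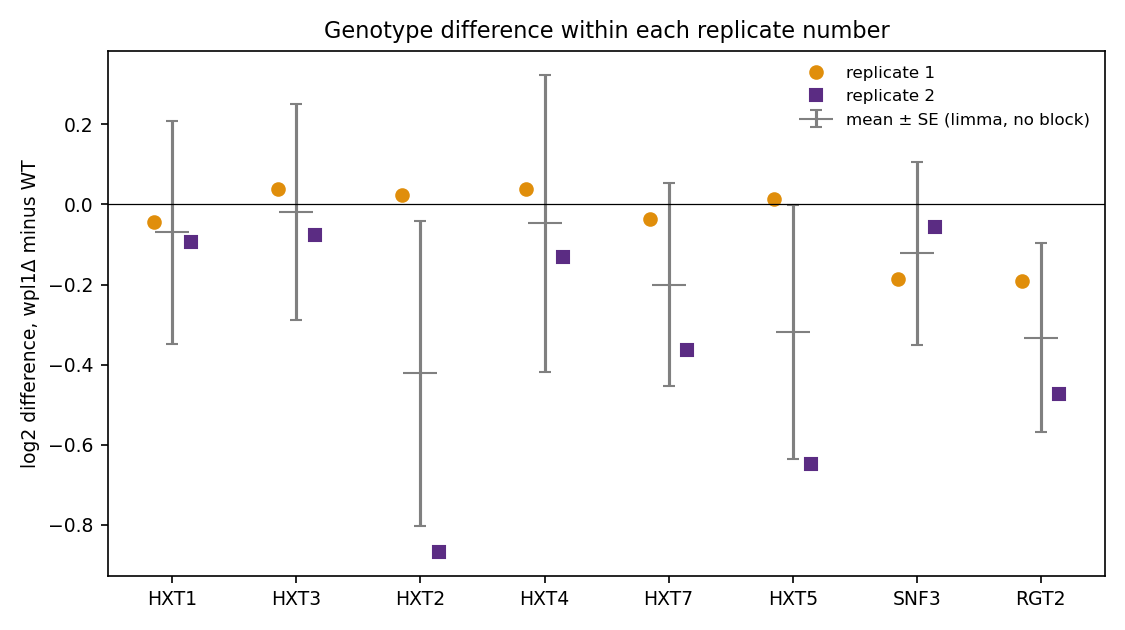
Log2 difference, wpl1 deletion minus wild type (vertical axis), for each measured gene within replicate 1 (circles) and replicate 2 (squares), with the fitted mean and its SE from limma without the block (grey). HXT2 and HXT5 are near 0 in replicate 1 and HXT2 is at -0.87 in replicate 2, where the HXT5 point rests on a value under background and marks no measured size. Both sensors are below 0 in both replicates.

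The classes of carrier were compared by subtracting the mean log2 value of HXT1 and HXT3 from that of HXT2, HXT4 and HXT7 within each array. Absolute levels of different probe sets are not comparable, so only the change of this quantity between arrays is given. High- minus low-affinity carriers differed between deletion and wild type by 0.01 in replicate 1 and -0.37 in replicate 2, a mean of -0.18 ± 0.27 (SD, n = 2). The spread between replicates was thus larger than the mean. With HXT7 as the only high-affinity carrier, the same quantity was -0.04 and -0.28. Without deletion replicate 2 the contrast with HXT2, HXT4 and HXT7 was 0.04, so the sign of that contrast also rests on that array. For HXT7 alone, arrays were not left out. The high-affinity carriers were also unlike in replicate 2, with HXT2 at -0.87, HXT7 at -0.36 and HXT4 at -0.13. HXT1 and HXT3 were at -0.09 and -0.08 there, so HXT4 was close to the low-affinity pair.

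The same genes were then set against the replicate number. The descriptions in the labels give both arrays of a number 1 shared tag in the form of a date, and what else differed between the numbers is not stated. Genotype was kept in this fit as a known factor of each array. In 3 carriers, HXT1, HXT3 and HXT4, both replicate 2 arrays were higher by similar amounts in both genotypes. HXT4, one of the high-affinity carriers, passed the test and the low-affinity pair did not. HXT2 and HXT5 ran the other way, mainly in the deletion. The sensors were nearly level.

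HXT4 had log2 values of 8.63 and 8.76 in the replicate 2 arrays of deletion and wild type, against 8.02 and 7.99 in their replicate 1 arrays. It rose in replicate 2 by 0.69 (SE 0.14, 95% interval 0.33 to 1.06, limma adjusted p = 0.0378), a 1.62-fold difference seen in both genotypes. By genotype the rise was 0.61 in the deletion and 0.78 in wild type. Among all genes 6.15% were called higher in replicate 2 and 13.2% lower, so 1 of 8 called higher is close to that background. The call was lost when every probe set of the array entered the fit (adjusted p = 0.138), where 0 genes passed at all. It was also lost without deletion replicate 1 and without wild type replicate 1, in fits that held no genotype either. With arrays left out in turn the difference ran from 0.63 to 0.76. Over all alternatives the adjusted p ran from 0.00755 to 0.138.

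The low-affinity carriers did not pass. HXT1 had a replicate 2 minus replicate 1 difference of 0.38 (SE 0.14, limma adjusted p = 0.104), with 0.36 in the deletion and 0.41 in wild type. HXT3 had 0.35 (SE 0.14, adjusted p = 0.133), with 0.29 and 0.41. In each of them the 2 arrays of one number lay within 0.10 log2 units of each other, well inside the gap between the numbers. HXT7 had 0.22 (SE 0.16), with 0.06 in the deletion and 0.38 in wild type. All genes had a median difference of -0.13, and the array medians shifted by -0.11. When each array was centred on its gene median, HXT1 (0.49, adjusted p = 0.036) and HXT3 (0.45, adjusted p = 0.045) passed as well. The share of all genes called higher was then 14.2%, with 775 higher and 826 lower, against 335 higher and 721 lower as deposited.

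HXT2 had a replicate difference of -0.58 (SE 0.24, limma adjusted p = 0.141), with -1.02 in the deletion and -0.13 in wild type. HXT5 had -0.42 (SE 0.20, adjusted p = 0.189) with its deposited values, and -0.09 in wild type. In the deletion, where its replicate 2 value was under background, it was at least 1.29-fold lower in replicate 2 than in replicate 1. Both replicate 2 arrays lay below both replicate 1 arrays in each gene, but most of the gap came from 1 array. SNF3 and RGT2 overlapped between the numbers, with differences of 0.05 and -0.08. Of the 8 genes, 4 had both replicate 2 arrays above both replicate 1 arrays, against 23.4% of all genes, and 2 had both below, against 46%.

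**Figure D3:**
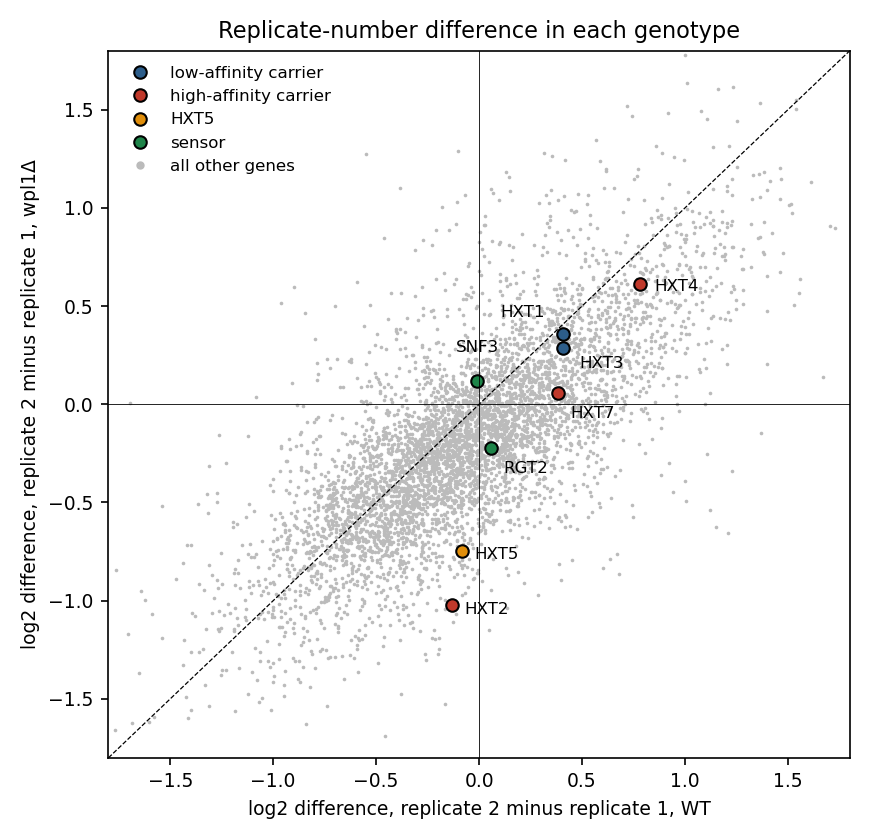
Log2 difference, replicate 2 minus replicate 1, in the wpl1 deletion (vertical axis) and in wild type (horizontal axis). Grey points are all other genes (46 of 5449 lie outside the axes), coloured points the carriers and sensors, and the dashed line marks equal differences. HXT1, HXT3 and HXT4 lie close to that line, and HXT2 and HXT5 lie far below it, HXT5 through a deletion replicate 2 value under background.

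The difference between replicate 2 and replicate 1 was also compared between genotypes gene by gene. That of the deletion minus that of wild type was -0.89 for HXT2, with 108 of the 5449 genes lower. For HXT5 no size is given, since its value in deletion replicate 2 was under background. The quantity was -0.05 for HXT1, -0.12 for HXT3, -0.17 for HXT4, -0.32 for HXT7, 0.13 for SNF3 and -0.28 for RGT2. With 1 array for each combination, these values have no test.

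Neighbouring genes on the chromosome did not share a single pattern. In the cluster on chromosome VIII, HXT1 and HXT4 had positive replicate differences, while HXT5, beside HXT1, was at -0.42 with its value under background. MSR1, the mitochondrial arginyl-tRNA synthetase gene next to HXT4, was at -0.58 (SE 0.15, limma adjusted p = 0.0529). In the cluster on chromosome IV, YDR341C beside HXT7 was at -0.10 and SVF1 beside HXT3 at -0.12, against 0.22 for HXT7 and 0.35 for HXT3. Neither of these outer neighbours passed.

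The genes most like 3 members over the 4 arrays were found by the root mean square difference of log2 values after removing each gene's mean, among 5032 genes above background in all arrays. The members were HXT2, HXT4 and HXT5, which had the widest ranges of the set. For HXT2 they were YAR066W at 0.04, KKQ8 at 0.05 and RRT12 at 0.06, and 12 genes lay under 0.1. YAR066W, for example, had 8.61 and 7.61 in deletion replicates 1 and 2, against 8.55 and 8.38 in wild type. The nearest to HXT4 were RLP7, a ribosome biogenesis factor, at 0.02, FRQ1, an activator of a lipid kinase, at 0.02 and the bud neck kinase gene GIN4 at 0.03, with 130 genes under 0.1. For HXT5 they were MOH1 at 0.02, the Mediator subunit gene SRB5 at 0.04 and OAC1, a mitochondrial oxaloacetate carrier, at 0.04, with 45 genes under 0.1. These HXT5 distances use its deposited value in deletion replicate 2, which was under background. With 4 arrays, many genes share such a pattern.

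The sensor pathway genes downstream of Snf3 and Rgt2 were above background in all arrays for 8 of 8. Between genotypes 0 of 8 passed. MTH1, the corepressor that the sensors remove, had the smallest p, with 8.25 and 7.98 in the deletion, against 8.42 and 8.27 in wild type. Its difference was -0.23 (SE 0.24), and the groups did not overlap. The list had a median of -0.03, close to that of all genes. Between replicate numbers, 0 rose and 2 of 8 fell in replicate 2, against 6.15% of all genes called higher and 13.2% called lower, with a list median of -0.29. RGT1, the repressor of HXT promoters, had 7.58 and 7.63 in the replicate 2 arrays of deletion and wild type, against 8.48 and 8.27 in their replicate 1 arrays. It fell by 0.78 (SE 0.15, limma adjusted p = 0.034). TUP1, its corepressor, fell by 0.70 (adjusted p = 0.039), and YCK1 had -0.31 and did not pass. Both calls were lost in the fit of every probe set and without either replicate 1 array.

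The hexose kinases, which trap glucose inside the cell by phosphorylation, had the lowest median replicate difference of the lists, at -1.38 over 4 genes. In replicate 2, 3 of 4 fell, against 13.2% of all genes, and 0 rose. GLK1, the glucokinase, had log2 values of 7.91 and 7.81 in the replicate 2 arrays of deletion and wild type, against 10.03 and 9.81 in their replicate 1 arrays. The groups were far apart, a 4.17-fold lower signal in replicate 2 (log2 difference -2.06, SE 0.14, limma adjusted p = 0.0234). EMI2, a glucokinase-related gene, fell by 1.61 and HXK1, hexokinase 1, by 1.15 (adjusted p = 0.0258 for both). HXK2, the main hexokinase during growth on glucose, had -0.38 (SE 0.14, adjusted p = 0.105). The calls were lost in the fit of every probe set (adjusted p = 0.133 for each), and that of HXK1 also without deletion replicate 1 (0.0743). Between genotypes 0 of 4 passed. All 4 were above 0 with a median of 0.17, against 43.6% above 0 and a median of -0.03 for all genes. HXK2 was only at 0.03. HXK1 had 9.79 and 8.66 in the deletion, against 9.35 and 8.18 in wild type, higher by 0.44 in replicate 1 and 0.49 in replicate 2. Its SE of 0.53 (0.14 with the replicate block) holds the difference between numbers, and its adjusted p was 0.996 even with the block.

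The glucose repression pathway had 15 of 15 genes above background in all arrays. Between genotypes 0 of 15 passed, with a median of -0.11. MIG1, the repressor of high-affinity carrier genes, had 8.85 and 9.06 in the deletion, against 9.05 and 9.60 in wild type, with a difference of -0.37 (SE 0.28). Between replicate numbers 1 of 15 rose and 4 of 15 fell, against 6.15% and 13.2% of all genes. TOS3, a kinase that activates Snf1, fell by 1.43 in replicate 2 (SE 0.22, limma adjusted p = 0.0265). SIP2 and GAL83, which encode beta subunits of the Snf1 kinase, fell by 0.87 (adjusted p = 0.0288) and 0.71 (adjusted p = 0.0349). These 3 calls were lost in the fit of every probe set, those of SIP2 and GAL83 also without deletion replicate 1, and that of GAL83 without wild type replicate 1. The others that passed were MIG2, which rose, and NRG2, which fell, both named after their values were seen. Both calls were lost in the fit of every probe set and without either replicate 1 array, and that of NRG2 also without genotype in the fit (adjusted p = 0.0846) and without deletion replicate 2 (0.2).

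The cyclic AMP branch of glucose sensing had 11 measured genes, all above background in all arrays. Between genotypes 0 of 11 passed. The smallest p was that of BCY1, the regulatory subunit of protein kinase A, which lies on chromosome IX. It had 9.80 and 9.72 in the deletion, against 9.65 and 8.93 in wild type, a difference of 0.15 in replicate 1 and 0.80 in replicate 2. Between replicate numbers 0 of 11 rose and 3 of 11 fell, against 6.15% and 13.2% of all genes. TPK2, a catalytic subunit of protein kinase A, fell by 1.09 in replicate 2 (limma adjusted p = 0.0261), GPA2, the G protein coupled to the receptor Gpr1, by 0.99 (0.0258), and RAS2, an activator of adenylate cyclase, by 0.93 (0.0278). All 3 calls were lost in the fit of every probe set, and those of GPA2 and RAS2 without wild type replicate 1.

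**Figure D4:**
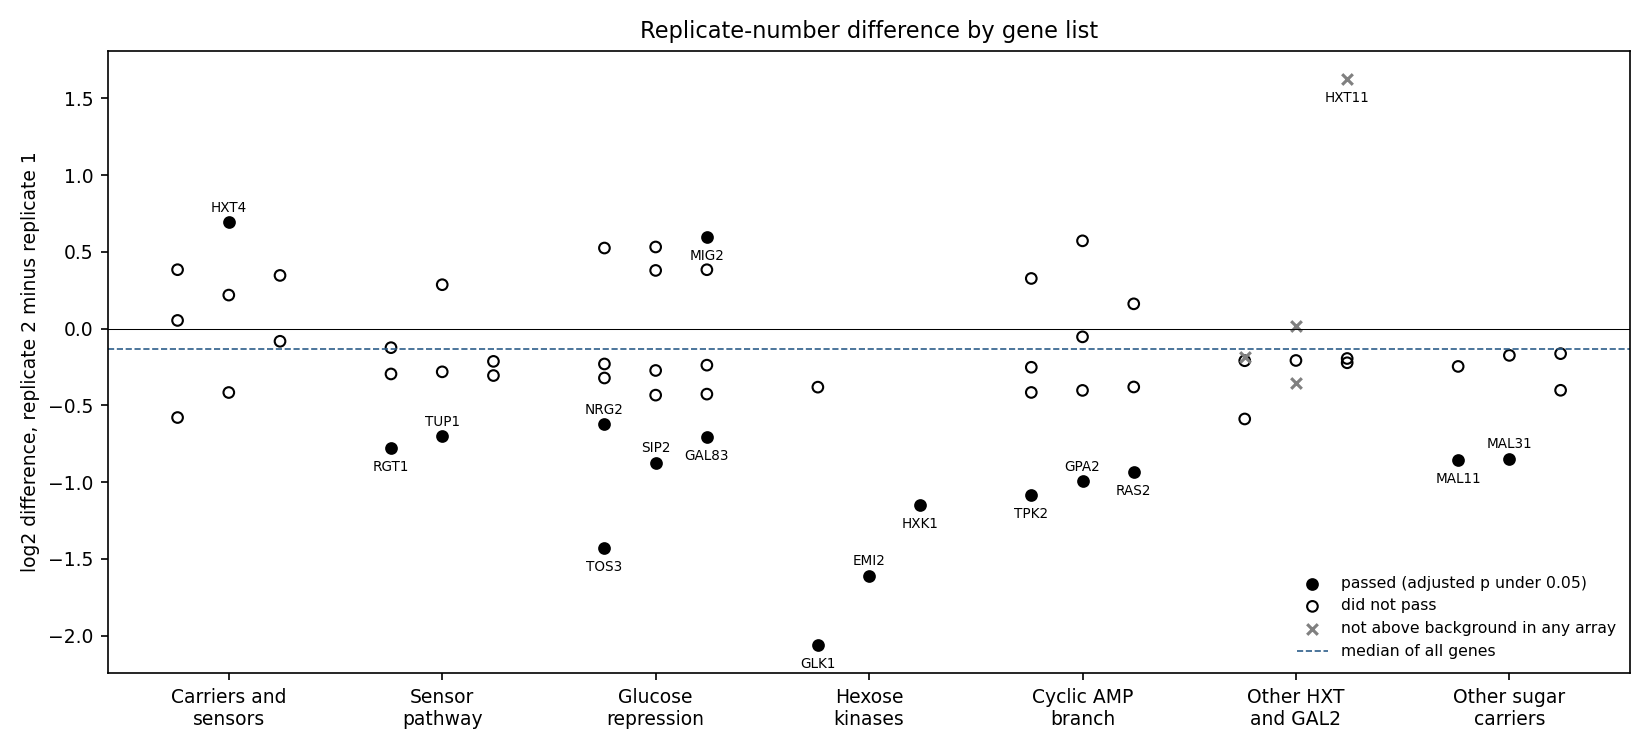
Log2 difference, replicate 2 minus replicate 1, with genotype in the fit (vertical axis), for each gene of the carriers and sensors and of 6 related lists. Filled points passed limma's test, open points did not, crosses were not above background in any array, and the dashed line is the median of all genes, -0.13. GLK1 and EMI2 are the lowest points of these lists, while HXT4 and MIG2 are the filled points above 0.

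The other members of the carrier family were mostly dim. Of 9 measured genes, 3 were above background in all arrays (HXT8, HXT9 and HXT15), 4 were not above it in any (HXT10, HXT11, HXT14 and HXT17), and HXT16 had no named probe set. Between genotypes 0 of 9 passed. HXT15 had the smallest p, with 6.54 and 6.35 in the deletion, against 6.95 and 6.73 in wild type. The groups did not overlap, and the difference of -0.39 (SE 0.24) was -0.41 in replicate 1 and -0.38 in replicate 2. Its adjusted p was 1 in limma without the block and 0.996 with it. GAL2, the galactose carrier, was above background in 2 of 4 arrays. HXT9 had 2 probe sets that disagreed, with differences of -0.46 and 0.58 in replicates 1 and 2 for one of them and 0.02 and -0.02 for the other. Between replicate numbers, 1 of 9 was called higher in replicate 2 and 0 lower, against 6.15% and 13.2% of all genes. The gene that passed, HXT11, stayed at background in all 4 arrays and gets no fold.

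Carriers of maltose and other sugars had 6 measured genes of 7 listed, and MPH3 had no named probe set. Between genotypes 0 of 6 passed. STL1, a glycerol carrier, had a difference of -0.28 (SE 0.30) with its deposited values, and -0.03 in replicate 1. Its value in deletion replicate 2 was under background, and it was at least 1.34-fold lower there than in wild type replicate 2. Between replicate numbers 0 of 6 rose and 2 of 6 fell, against 6.15% and 13.2% of all genes. MAL11, a maltose carrier, was not above background in either replicate 2 array and was at least 1.14-fold lower there (limma adjusted p = 0.0278). MAL31, another maltose carrier, was above background in 1 of 2 replicate 2 arrays and both replicate 1 arrays (adjusted p = 0.0282). Both calls were lost in the fit of every probe set and without deletion replicate 1.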

How the data were processed

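Total RNA of 4 samples was measured on 1-colour arrays. The deposited values are log2 expression values per probe set, which the authors computed by RMA (affy package), per the submitters' processing notes. The method subtracts background, makes array distributions equal and condenses each set's probes to 1 value, so differences are relative to other transcripts and tend to be compressed. Per the labels' protocols double-stranded cDNA was labelled, so strands cannot be told apart.

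Of 10928 probe sets, 5498 matched S. cerevisiae genes of the NCBI gene table (assembly R64) by gene ID, and probe sets of the 47 genes with several were averaged, giving 5449 genes. Groups and replicate numbers came from the titles. Two-sided tests used lmFit and eBayes of limma 3.58.1 (R 4.3.3), with p-values adjusted by Benjamini-Hochberg over all genes and a threshold of 0.05. They compared deletion minus wild type without covariates, and replicate 2 minus replicate 1 with genotype. The fits were run on simulated data, with a limit set only on the bias of the fitted differences and none on recovery or false calls. No pair of arrays was identical. Replicate numbers pair the arrays through the shared tag in the labels. Deviations of same-numbered arrays from their group means correlated with r = 0.747 across genes.

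Members and lists were chosen with earlier results of these data known. All members were named, with RAD61, up to 3 genes per list and fit by smallest p, and the 3 genes most like each of the 3 members of widest range. Chromosomal neighbours were added later. A gene below background in every array of a group got a bound, with each array set to the higher of the background limit and the gene's own value. Alternatives were the block, leaving out dim genes, fitting every probe set, the brightest probe set, centring, quantile normalization, a trended robust prior and leaving out each array. Fits with an array left out held only the compared factor, without the block and, between replicate numbers, without genotype. No sequences or coordinates are given.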

Additional observations from a re-analysis of the deposited data

Results flagged for a closer look

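For both sensors the replicate 2 array lay on opposite sides of the replicate 1 array in the 2 genotypes. SNF3 had a log2 difference, replicate 2 minus replicate 1, of 0.12 in the deletion and -0.011 in wild type. RGT2 had -0.22 in the deletion and 0.059 in wild type. With 1 array for each combination, the difference between genotypes was not tested.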

How the results depend on the processing

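The count of carriers and sensors called between genotypes was 0 under each alternative run, and the smallest adjusted p among the 88 alternative fits was 0.996. With the replicate block the difference of RGT2 stayed at -0.33 (SE 0.15, limma adjusted p = 0.996), RAD61 had adjusted p = 0.141, and the block changed no call. The number of genes called between genotypes ran from 0 to 3 with arrays left out (3 without wild type replicate 1, 1 without wild type replicate 2), and RAD61 then passed without wild type replicate 1 (adjusted p = 0.00224) and without wild type replicate 2 (0.00786). Such fits mix genotype with replicate number. In them the genotype differences ranged from -0.27 to 0.14 for HXT1, -0.93 to 0.090 for HXT2, -0.22 to 0.18 for HXT3, -0.44 to 0.34 for HXT4, -0.69 to 0.055 for HXT5, -0.12 to 1.05 for HXK1 and -0.61 to 0.047 for STL1. With quantile normalization over the S. cerevisiae genes HXT3 was at 0.022. The change of high- minus low-affinity carriers ranged from -0.40 to 0.043. Counting HXT6 and HXT7 as 1 carrier was not run, since no probe set carries the name HXT6. Between replicate numbers, 0 genes and 0 carriers or sensors passed with all probe sets in the fit, the cause of which was not tested. Centring called 1601 genes and 3 carriers or sensors (HXT4, HXT1 and HXT3), as quantile normalization also did for the 3. With arrays left out, 290 to 1729 genes and 0 to 3 of the set passed. The genes were 290 without deletion replicate 1, 341 without wild type replicate 1, 1729 without deletion replicate 2 and 1605 without wild type replicate 2. HXT2 (-1.01, adjusted p = 0.0156) and HXT5 (-0.74, adjusted p = 0.0199) passed without wild type replicate 2, where HXT5 rests on its value under background in deletion replicate 2. RGT2 was at 0.025 with centring and 0.072 with quantile normalization, and ranged from -0.32 to 0.15 with arrays left out, where SNF3 ranged from -0.040 to 0.15. Within wild type alone, a split added after the data were seen, RGT2 was at 0.059 and SNF3 at -0.011. Signal over background limits HXT5 and most other carriers of the family.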
